A study of Rattus norvegicus with 12 samples.

Results

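The nuclear genes for subunits of the oxidative phosphorylation complexes were followed in rat cardiac progenitor cells that had attached to 3 surfaces or stayed in suspension. Members were protein-coding rat genes whose symbols begin with Ndufa, Ndufb, Ndufc, Ndufs, Ndufv, Ndufab, Uqcr, Cox4, Cox5, Cox6, Cox7, Cox8 or Atp5, together with Sdha, Sdhb, Sdhc, Sdhd and Cyc1. The assembly factor genes named Ndufaf and genes with fewer than 10 counts over the 12 libraries were left out. Of 16924 genes in each count file, 82 met the name rule and 78 also met the count minimum. The 4 left out were Cox6b2, Cox8b and Cox8c with 0 counts and Ndufa4l2 with 3. A further 29 symbols of the name rule had no row and were not analysed here. By complex, the members were 34 genes of complex I, 4 of complex II, 9 of complex III, 14 of complex IV and 17 of complex V. Of the 78, 76 were expressed highly enough to be tested.

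RNA was sequenced from 4 groups of 3 libraries each: cells on fibronectin, cells on laminin, cells on dishes without coating, and cells in suspension. All came from 1 line that the labels trace to a clone, grown before the experiment with 10% fetal bovine serum, leukaemia inhibitory factor, basic fibroblast growth factor, erythropoietin and glutathione. Cells on dishes were sparse and were collected 2 h after seeding in medium with 0.1% serum, per the labels, and the handling of the suspension cells is not described separately. In every group replicate 1 belonged to batch 1, replicate 2 to batch 2 and replicate 3 to batch 3. The p-values of comparisons between groups thus measure the spread between batches of this line.

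Oxidative phosphorylation takes place in the inner mitochondrial membrane. Complexes I and II pass electrons from NADH and succinate to ubiquinone, complex III passes them to cytochrome c, and complex IV passes them to oxygen. Complexes I, III and IV pump protons, and complex V, the ATP synthase, uses the proton gradient to make ATP. All subunits of complex II and most of the others are encoded in the nucleus, translated in the cytosol and imported, and the rest come from mitochondrial DNA. Contracting heart muscle depends heavily on this pathway, whereas many cultured progenitor and stem cells lean more on glycolysis. Mitochondrially encoded subunits were not analysed here.

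Library totals lay between 15875160 and 20852160 counts. The members took between 1.02% and 1.23% of the counts in attached cells and between 0.908% and 0.95% in suspension. Of 12 cardiomyocyte markers, Myh7, Nkx2-5 and Pln were at 0 and 8 in all had fewer than 10 counts over the 12 libraries. The summed level of these markers was 21.6 to 22.8 CPM (read counts scaled to the size of the library) on fibronectin, 15.0 to 19.5 CPM on laminin, 19.5 to 21.8 CPM without coating and 10.8 to 15.2 CPM in suspension. Most of that sum was Nppb, at 16.6, 11.8 and 14.8 CPM on the 3 surfaces and 11.0 CPM in suspension. Most of the listed contractile genes were therefore at or near the counting floor, and Tnnt2, a troponin gene, was the 1 marker of the list that passed the test, with log2 fold changes of 1.39 ± 0.19, 1.56 ± 0.18 and 1.60 ± 0.19 on fibronectin, laminin and uncoated dishes (edgeR, adjusted p = 0.00104, 0.000343 and 0.000312). Of 8 fibroblast and mesenchymal markers, Dcn had 0 counts and Thy1 had 18 over the 12 libraries. The list summed to 7360 to 7990 CPM in attached cells and 6490 to 7300 CPM in suspension. Most of that sum was Vim, at 5400, 5440 and 5120 CPM on the 3 surfaces and 4550 CPM in suspension, which passed on fibronectin and laminin, while the other 5 tested markers had no call and the list medians were 0.01, -0.08 and 0.01. Smooth muscle markers summed to 371 to 445 CPM in attached cells and 422 to 517 CPM in suspension, and endothelial markers to 107 to 148 CPM in attached cells and 97.7 to 185 CPM in suspension. Most of the endothelial sum was Flt1, at 128, 128 and 130 CPM on the 3 surfaces and 153 CPM in suspension. Pecam1, Cdh5, Tek and Emcn had 59, 10, 90 and 2 counts over the 12 libraries. Smtn fell on every surface and Myh11 on laminin, 2 of 4 tested smooth muscle markers. Vwf rose on every surface, 1 of 2 tested endothelial markers, with 90, 71 and 54 counts on the 3 surfaces and 24 in suspension. Of 8 blood cell markers 2 were at 0 and 5 in all had fewer than 10 counts. The list summed to 51.5 to 63.4 CPM in attached cells and 35.4 to 38.2 CPM in suspension. Most of the blood cell sum was Cd14, at 55.8, 56.6 and 50.1 CPM on the 3 surfaces and 34.4 CPM in suspension. Of the 3 tested blood cell markers, Cd14 and Laptm5 rose on every surface and Cd68 had no call. The part of these markers in the results below was not tested.

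Taken as a whole, the subunit genes stood higher in attached cells. Their summed level was 10616, 10421 and 11752 CPM in fibronectin replicates 1, 2 and 3. It was 10961, 11114 and 11866 CPM on laminin and 10387, 11006 and 12005 CPM without coating, against 9237, 9178 and 9258 CPM in suspension. Every attached library lay above every suspension library, and in each attached group replicate 3 was the highest. The mean was 10930 ± 719 CPM on fibronectin, 11313 ± 484 CPM on laminin, 11133 ± 816 CPM without coating and 9224 ± 41.3 CPM in suspension (SD, n = 3). The ratios of these means to the suspension mean were 1.18 on fibronectin, 1.23 on laminin and 1.21 without coating. Without Atp5f1b, the member with the most reads, they were 1.18, 1.22 and 1.20. CPM is a share of each library's counts, and in bulk RNA a change in the number of cells that express a gene and a change in RNA per cell cannot be told apart.

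**Figure D1:**
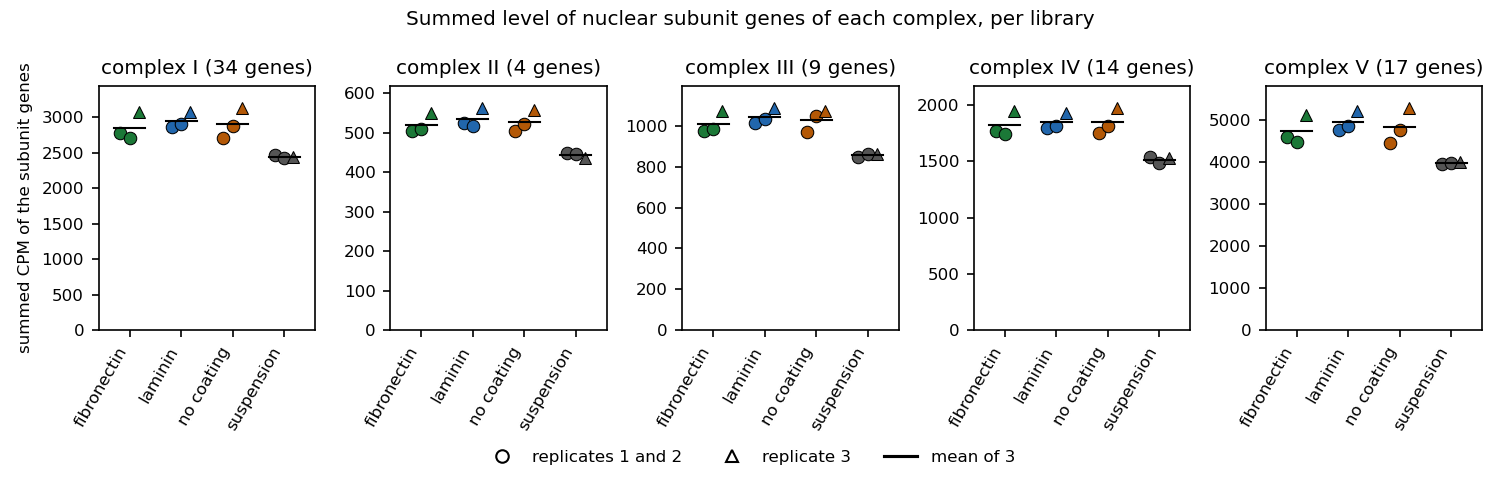
Summed CPM (TMM-scaled) of the subunit genes of each complex in each library, with replicate 3 as a triangle and a line at the mean of 3 libraries. In all 5 complexes every attached library lies above the suspension libraries, and replicate 3 is the highest library on each surface.

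The ratios to suspension were close to each other across the 5 complexes. Complex I genes summed to 2851 ± 194 CPM on fibronectin, 2951 ± 112 CPM on laminin and 2906 ± 209 CPM without coating, against 2447 ± 24.9 CPM in suspension (SD, n = 3). The ratio of an attached mean to the suspension mean ran between 1.17 and 1.21 for complex I, 1.17 and 1.21 for complex II, and 1.18 and 1.22 for complex III. It ran between 1.20 and 1.22 for complex IV and between 1.19 and 1.25 for complex V. The plot of summed CPM by complex shows these values for each library.

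Tested gene by gene over all 10020 expressed genes, 13 of 76 members rose on fibronectin and 0 fell (edgeR quasi-likelihood test, Benjamini-Hochberg adjusted p under 0.05), where 6.61% of all genes rose and 3.06% fell. On laminin 47 rose and 0 fell, where 12.1% of all genes rose and 6.96% fell. Without coating 29 rose and 0 fell, where 8.48% of all genes rose and 4.10% fell. At an unadjusted p under 0.05, 54, 61 and 64 members were higher and 0 lower. Of all 10020 genes, 2697, 3577 and 3201 passed that mark in either direction. DESeq2 called 23, 49 and 39 members higher and 0 lower, where it called 7.91%, 12.2% and 9.34% of all genes higher. The median log2 fold change of the members was 0.25 on fibronectin, 0.29 on laminin and 0.30 without coating, against 0.00, -0.01 and 0.00 over all genes tested. The log2 fold changes of the members ran between -0.15 and 0.42 on fibronectin, between -0.19 and 0.46 on laminin and between -0.19 and 0.58 without coating. Positive values were found for 75 of 76 members on fibronectin, 75 on laminin and 73 without coating. These 3 comparisons share the 3 suspension libraries and are not independent of each other.

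The counts of calls depended on how the batch was treated. With the replicate number as a block, 54 members rose on fibronectin, 62 on laminin and 66 without coating, where 16.6%, 22.4% and 20.1% of all genes rose, and 0 fell. Without batch 3 and without a block, 1, 31 and 13 members rose on fibronectin, laminin and uncoated dishes, where 4.30%, 8.55% and 5.17% of all genes rose, so the share of members on fibronectin was below that of all genes. Without batch 3 but with the block, a setting chosen after seeing the data, 31, 61 and 47 members rose, where 13.5%, 19.5% and 14.7% of all genes rose. Leaving out single libraries gave between 1 and 10 calls on fibronectin, 4 and 32 on laminin and 1 and 37 without coating. In these fits 2.82% to 5.32%, 4.76% to 9.09% and 3.48% to 8.69% of all genes rose. The fibronectin count was 1 without any 1 of suspension 1, 2 or 3, fibronectin 1 or fibronectin 3. There 2.82% to 4.81% of all genes rose, so the share of members was below that of all genes. The laminin count was 23, 8 and 4 without suspension 1, 2 and 3, where 8.32%, 5.26% and 4.76% of all genes rose. It was 25 and 10 without laminin 2 and 3, where 8.33% and 6.17% rose. The uncoated count was 11, 1 and 1 without suspension 1, 2 and 3, where 5.88%, 3.65% and 3.48% of all genes rose. It was 7 and 1 without uncoated replicates 2 and 3, where 5.26% and 4.09% rose. The laminin count of 4 was near the share of all genes, and the uncoated counts of 1 were below it. The median change kept its sign under all of these settings. Of the 47 laminin calls, 3 (Uqcrh, Ndufa8 and Atp5pd) held with any 1 of the 6 libraries compared left out, and of the fibronectin and the uncoated calls 1 did (Uqcrh).

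Without any model, the 3 fibronectin libraries lay above the 3 suspension libraries for 59 of 76 members, where this held for 21.8% of all genes. On laminin it held for 63 members, against 23.5% of all genes, and without coating for 62, against 21.4%. For 55 members all 9 attached libraries lay above all 3 suspension libraries, which held for 15.5% of all genes. The attached libraries lay wholly below for 0 members, which held for 14.9% of all genes.

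Many nuclear subunit genes are known targets of NRF1 and of GABP, a factor of the ETS family, and YY1 sites are also known at some of them. The promoters of 4 members are printed here because they carry these motifs and because the members stand for different behaviours: Uqcrh, Atp5po and Sdha had higher means on each surface, and Ndufs1 had lower means. Each runs from 250 bases before to 50 after the annotated start in the RefSeq annotation of GRCr8, 5′ to 3′ on the gene's strand. Capitals mark matches on either strand to the NRF1 letters (GCGCA, any 1 base, GCGC), the ETS letters CCGGAAG or the YY1 letters AAGATGGC. The Uqcrh window is chr5:134790833-134791132 on the minus strand, that of Atp5po is chr11:44657434-44657733 on the minus strand, that of Sdha is chr1:30764303-30764602 on the plus strand, and that of Ndufs1 is chr9:72073556-72073855 on the minus strand.
Uqcrh: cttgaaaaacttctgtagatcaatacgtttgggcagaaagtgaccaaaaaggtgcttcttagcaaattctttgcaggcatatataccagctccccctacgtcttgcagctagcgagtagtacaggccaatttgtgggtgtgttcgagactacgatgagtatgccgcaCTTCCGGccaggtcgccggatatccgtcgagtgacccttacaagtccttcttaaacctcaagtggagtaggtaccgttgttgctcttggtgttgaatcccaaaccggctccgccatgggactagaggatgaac
Atp5po: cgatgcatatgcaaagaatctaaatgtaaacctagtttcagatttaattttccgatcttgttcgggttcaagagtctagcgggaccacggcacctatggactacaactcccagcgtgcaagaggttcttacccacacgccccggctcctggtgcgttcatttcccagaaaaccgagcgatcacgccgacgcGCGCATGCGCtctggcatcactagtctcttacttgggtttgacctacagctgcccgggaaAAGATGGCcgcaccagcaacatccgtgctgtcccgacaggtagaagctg
Sdha: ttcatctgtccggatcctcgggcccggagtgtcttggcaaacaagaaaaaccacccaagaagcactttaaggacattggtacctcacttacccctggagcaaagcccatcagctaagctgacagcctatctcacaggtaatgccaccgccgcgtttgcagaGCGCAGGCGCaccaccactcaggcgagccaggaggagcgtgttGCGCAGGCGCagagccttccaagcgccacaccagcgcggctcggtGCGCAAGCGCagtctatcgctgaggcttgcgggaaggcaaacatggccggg
Ndufs1: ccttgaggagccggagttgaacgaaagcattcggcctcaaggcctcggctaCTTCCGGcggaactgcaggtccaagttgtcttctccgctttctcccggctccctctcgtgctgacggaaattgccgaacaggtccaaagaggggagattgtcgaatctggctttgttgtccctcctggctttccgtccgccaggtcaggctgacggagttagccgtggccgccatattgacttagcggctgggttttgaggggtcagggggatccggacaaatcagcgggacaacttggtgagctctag

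The Uqcrh window held 1 ETS match, which began at position -83 from the start. The Atp5po window held an NRF1 match at -59 and a YY1 match at 2. The Sdha window held 3 NRF1 matches, at -89, -46 and -1, and the Ndufs1 window held an ETS match at -199. None of these matches overlapped another. Windows were found for 67 of 78 members. The NRF1 letters were present in 13 of the 67 (19.4%), in 10.8% of the 8216 windows of genes tested and in 6.09% of 19005 protein-coding windows. The ETS letters were present in 21 (31.3%), against 19.5% of tested genes, and the YY1 letters in 13 (19.4%), against 5.93% of tested genes. The median change was close in members with and without a match. On laminin the median log2 fold change was 0.30 for 13 tested members with an NRF1 match and 0.29 for 53 without, and 0.29 for 21 with an ETS match and 0.29 for 45 without. A match in these windows is a description of letters and not a bound site.

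**Figure D2:**
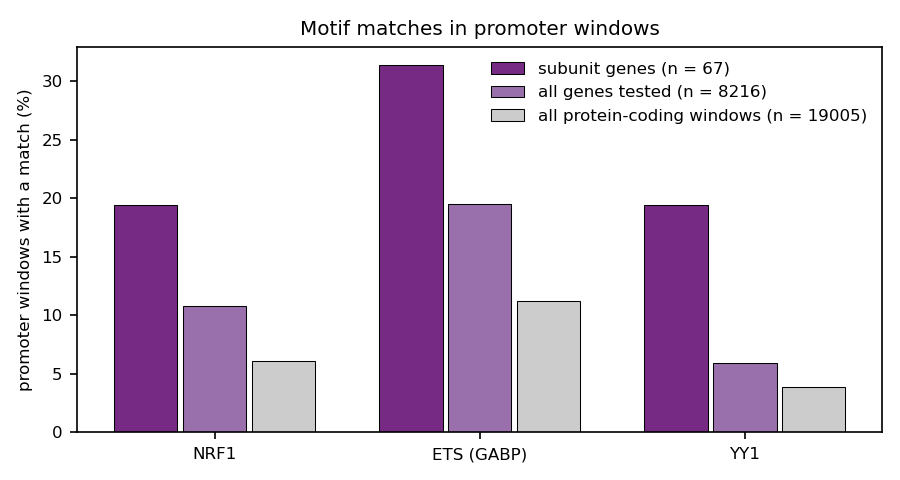
Share of 300-base promoter windows with at least 1 match to each motif, for 67 subunit genes, 8216 tested genes and 19005 protein-coding windows. Each motif is present in a larger share of the subunit gene windows, for YY1 19.4% against 5.93% of tested genes.

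Complex I, the NADH dehydrogenase, had 3 of 34 members higher on fibronectin, 20 on laminin and 11 without coating. Of all genes 6.61%, 12.1% and 8.48% rose, so the fibronectin count was near the share of all genes. Ndufa8, an accessory subunit on the intermembrane space side, was measured at 29.6, 29.1 and 32.5 CPM on fibronectin, 32.6, 31.6 and 35.1 CPM on laminin and 28.4, 31.6 and 33.8 CPM without coating, against 24.7, 24.8 and 23.2 CPM in suspension. No attached library overlapped suspension. Its log2 fold changes were 0.33 ± 0.09, 0.45 ± 0.09 and 0.37 ± 0.09 (edgeR, adjusted p = 0.039, 0.00682 and 0.0211). Ndufb5, an accessory subunit of the membrane arm, stood at 79.8, 75.8 and 92.8 CPM on fibronectin, 80.8, 82.8 and 90.2 CPM on laminin and 79.5, 84.0 and 86.4 CPM without coating, against 64.2, 67.1 and 66.5 CPM in suspension. It rose by 0.33 ± 0.09, 0.36 ± 0.09 and 0.34 ± 0.09 on the log2 scale (edgeR, adjusted p = 0.0352, 0.0163 and 0.0271). Again the groups did not overlap. Ndufa6, an accessory subunit that binds the mitochondrial acyl carrier protein Ndufab1, rose on laminin by 0.37 ± 0.09 and without coating by 0.40 ± 0.09 (edgeR, adjusted p = 0.0167 and 0.0161), with 0.30 ± 0.09 on fibronectin (adjusted p = 0.0573). Ndufb11, a small subunit of the membrane arm, rose on laminin by 0.38 ± 0.09 and without coating by 0.35 ± 0.09 (edgeR, adjusted p = 0.015 and 0.0266). Its laminin call ended without suspension 2 or suspension 3 (highest adjusted p = 0.0634), and its uncoated call also without uncoated replicate 3 (highest adjusted p = 0.101). Ndufab1 itself had log2 fold changes of 0.11 ± 0.11, 0.10 ± 0.11 and 0.15 ± 0.11 (edgeR, adjusted p = 0.557, 0.538 and 0.361).

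Complex I has 7 core subunits encoded in the nucleus, those that carry the electron path. Of these 7, 0 rose on fibronectin, 4 on laminin and 1 without coating (edgeR), where 6.61%, 12.1% and 8.48% of all genes rose. On fibronectin 3 of the 7 were higher at an unadjusted p under 0.05, and 0 by DESeq2. Ndufs1, the core subunit that carries iron-sulphur clusters next to the NADH site, had no call on any surface. It was measured at 164, 178 and 170 CPM on fibronectin, 178, 182 and 138 CPM on laminin and 181, 183 and 135 CPM without coating, against 176, 197 and 195 CPM in suspension. The attached and suspension values overlapped, and the log2 fold changes of -0.15 ± 0.13, -0.19 ± 0.13 and -0.19 ± 0.13 did not pass (edgeR, adjusted p = 0.485, 0.312 and 0.335). Of the calls named for complex I, that of Ndufa8 on laminin held with any 1 library of the 2 groups left out. The fibronectin calls of Ndufa8 and Ndufb5 ended without most single libraries, with adjusted p up to 0.16 and 0.143.

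**Figure D3:**
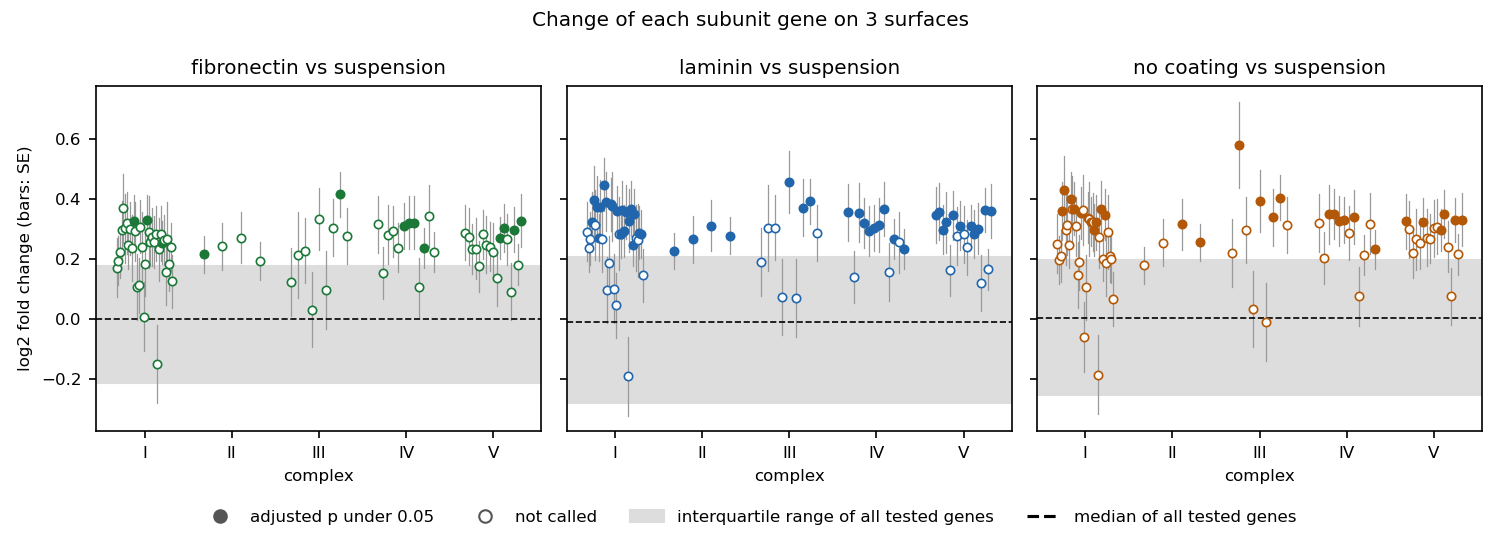
Log2 fold change against suspension of each of 76 tested members by complex, with bars of 1 SE, filled where the adjusted p was under 0.05. Almost all points lie above the median of all tested genes (dashed), and most lie above the interquartile range of all genes (grey); Ndufs1 is the lowest point on each surface.

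Complex II, succinate dehydrogenase, is the smallest and also works in the tricarboxylic acid cycle. Its flavoprotein gene Sdha stood at 143, 140 and 148 CPM on fibronectin, 142, 139 and 153 CPM on laminin and 138, 141 and 141 CPM without coating, against 120, 127 and 123 CPM in suspension. The groups did not overlap. The change was 0.22 ± 0.06 on fibronectin, 0.23 ± 0.06 on laminin and 0.18 ± 0.06 without coating (edgeR, adjusted p = 0.0488, 0.0269 and 0.0739). The iron-sulphur subunit gene Sdhb and the membrane anchors Sdhc and Sdhd rose on laminin by 0.27 ± 0.08, 0.31 ± 0.09 and 0.28 ± 0.06 (edgeR, adjusted p = 0.037, 0.0296 and 0.0128). Thus all 4 members passed on laminin, 2 passed without coating and 1 passed on fibronectin, where 12.1%, 8.48% and 6.61% of all genes rose. The fibronectin call of Sdha ended with any 1 of the 6 libraries left out (highest adjusted p = 0.178), and the laminin call of Sdhd ended without suspension 3 alone (adjusted p = 0.0537). Those of Sdha, Sdhb and Sdhc ended without laminin 3, suspension 2 or suspension 3, among others (highest adjusted p = 0.0925, 0.119 and 0.105).

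Complex III, the cytochrome bc1 complex, held the member with the smallest p in all 3 comparisons. Uqcrh, the hinge protein next to cytochrome c1, was measured at 107, 95.6 and 111 CPM on fibronectin, 103, 99.3 and 107 CPM on laminin and 97.0, 107 and 107 CPM without coating, against 76.4, 78.9 and 79.8 CPM in suspension. The lowest attached library was well above the highest suspension library. Its log2 fold changes were 0.42 ± 0.08 on fibronectin, 0.39 ± 0.08 on laminin and 0.40 ± 0.08 without coating (edgeR, adjusted p = 0.00619, 0.00618 and 0.00667). These calls held with any 1 of the libraries compared left out and without batch 3, with adjusted p up to 0.0343 on fibronectin and 0.0295 without coating across single libraries left out.

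Uqcrc1, a core protein of complex III, stood at 204, 193 and 226 CPM on fibronectin, 206, 217 and 255 CPM on laminin and 194, 212 and 243 CPM without coating, against 162, 168 and 164 CPM in suspension. It rose by 0.46 ± 0.10 on laminin and by 0.39 ± 0.10 without coating (edgeR, adjusted p = 0.0139 and 0.0319), and the value on fibronectin was 0.33 ± 0.10 (adjusted p = 0.0661). The laminin call ended without suspension 3 (adjusted p = 0.0533) and the uncoated call without 5 of the 6 libraries in turn, all but uncoated replicate 1 (highest adjusted p = 0.115). Its partner Uqcrc2 had log2 fold changes of 0.10 ± 0.13, 0.07 ± 0.13 and -0.01 ± 0.13 (edgeR, adjusted p = 0.656, 0.718 and 0.964). The Rieske iron-sulphur protein gene Uqcrfs1 rose on laminin by 0.37 ± 0.10 and without coating by 0.34 ± 0.10 (edgeR, adjusted p = 0.0221 and 0.0401). Uqcrb, a small subunit at the ubiquinone side, had 0.03 ± 0.13, 0.07 ± 0.13 and 0.03 ± 0.13 and turned negative on fibronectin and without coating in some other settings.

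Complex IV, cytochrome c oxidase, had 12 tested members, of which 4 rose on fibronectin, 9 on laminin and 6 without coating. Of all genes 6.61%, 12.1% and 8.48% rose. Cox6c, a small membrane subunit, stood at 168, 170.0 and 193 CPM on fibronectin, 178, 168 and 181 CPM on laminin and 169, 175 and 194 CPM without coating, against 144, 140.3 and 143 CPM in suspension. No attached library reached down to suspension. It rose by 0.31 ± 0.08, 0.30 ± 0.08 and 0.33 ± 0.08 on the log2 scale (edgeR, adjusted p = 0.0292, 0.0213 and 0.0193). Cox7a2l, which helps join complexes III and IV into a supercomplex, was measured at 225, 204 and 247 CPM on fibronectin, 233, 217 and 248 CPM on laminin and 220, 216 and 249 CPM without coating, against 187, 174 and 181 CPM in suspension. It too was higher in every attached library, by 0.32 ± 0.09, 0.37 ± 0.09 and 0.34 ± 0.09 (edgeR, adjusted p = 0.0454, 0.018 and 0.0311). The fibronectin calls of both ended without 5 of the 6 libraries in turn, all but fibronectin 2 (highest adjusted p = 0.131 and 0.187). Ndufa4, first described in complex I and now counted as a subunit of complex IV, had 0.22 ± 0.07, 0.23 ± 0.07 and 0.23 ± 0.07 (edgeR, adjusted p = 0.057, 0.0337 and 0.0442). Its uncoated call ended with any 1 of the 6 libraries left out, and its laminin call held only without suspension 1 (highest adjusted p = 0.155 and 0.126).

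Some complex IV subunits have tissue forms, and 2 of the 3 listed forms of heart and skeletal muscle had a row, both at or near 0 counts. The third, Cox7a1, was not analysed here. Cox6a2, the muscle form of subunit VIa, had 5 counts over the fibronectin libraries, 5 over laminin, 6 over uncoated dishes and 0 over suspension. A count of 0 allows up to 3 counts. Cox8b, another muscle form, had 0 counts in all 12 libraries, which again allows up to 3. The widely expressed form Cox6a1 stood at 244, 242 and 274 CPM on fibronectin, 248, 253 and 273 CPM on laminin and 243, 253 and 295 CPM without coating, against 206, 205 and 210.1 CPM in suspension. Cox6a1 was higher in every attached library and passed on laminin at 0.32 ± 0.08 and without coating at 0.35 ± 0.08 (edgeR, adjusted p = 0.0255 and 0.0226). Cox7a2, the widely expressed form of subunit VIIa, rose by 0.32 ± 0.09 on fibronectin and 0.31 ± 0.09 on laminin (edgeR, adjusted p = 0.0466 and 0.0343), with 0.29 ± 0.09 without coating (adjusted p = 0.0585). Cox6b1, the widely expressed form of subunit VIb, rose on laminin by 0.29 ± 0.08 and without coating by 0.33 ± 0.08 (edgeR, adjusted p = 0.0328 and 0.0279). Each of these 4 calls ended without 5 of the 6 libraries in turn (adjusted p up to 0.173 for Cox7a2 and 0.106 for Cox6b1). The exceptions were fibronectin 2 and suspension 1 for the fibronectin and laminin calls of Cox7a2, and laminin 1 and uncoated replicate 1 for the laminin and uncoated calls of Cox6b1. Cox8a and Cox7b had no call, with log2 fold changes of 0.34, 0.26 and 0.32 for Cox8a and 0.10, 0.16 and 0.07 for Cox7b. Cox4i2, a form known from lung and from low oxygen, had 53 counts over the 12 libraries and was not tested.

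Complex V, the ATP synthase, had 4 of 17 members higher on fibronectin, 11 on laminin and 6 without coating. Of all genes 6.61%, 12.1% and 8.48% rose. Atp5f1b, the catalytic beta subunit, stood at 1791, 1675 and 2004 CPM on fibronectin, 1816, 1867 and 2116 CPM on laminin and 1677, 1813 and 2077 CPM without coating, against 1474, 1518 and 1532 CPM in suspension. All 9 attached libraries were above suspension. The log2 fold change of 0.36 ± 0.10 on laminin passed, and those of 0.27 ± 0.10 on fibronectin and 0.30 ± 0.10 without coating did not (edgeR, adjusted p = 0.0262, 0.0939 and 0.0618). The laminin call ended without laminin 3 or any 1 suspension library (highest adjusted p = 0.0915).

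In the peripheral stalk of the ATP synthase, Atp5pd was measured at 202, 198 and 220.1 CPM on fibronectin, 212, 217 and 219 CPM on laminin and 196, 205 and 232 CPM without coating, against 171, 163 and 169 CPM in suspension. It rose on each surface by 0.30 ± 0.07, 0.36 ± 0.07 and 0.33 ± 0.07 (edgeR, adjusted p = 0.0306, 0.00903 and 0.0175). Atp5po, the stalk subunit at the top of the catalytic head and the gene whose promoter holds an NRF1 and a YY1 match, rose by 0.33 ± 0.09, 0.36 ± 0.09 and 0.33 ± 0.09 (edgeR, adjusted p = 0.0423, 0.0195 and 0.0347). Atp5pb, the third stalk gene named here, had 0.09 ± 0.09, 0.12 ± 0.09 and 0.08 ± 0.09 (edgeR, adjusted p = 0.559, 0.375 and 0.595). The membrane subunit genes Atp5mf and Atp5mg also rose on all surfaces, by 0.27 to 0.31 and by 0.28 to 0.35. Atp5mc1, Atp5mc2 and Atp5mc3, which encode the same mature ring subunit, had log2 fold changes between 0.22 and 0.31, and of these Atp5mc2 passed on laminin (edgeR, adjusted p = 0.0256). Atp5if1, the inhibitor of ATP hydrolysis by the enzyme, rose by 0.35 ± 0.08 on laminin and 0.32 ± 0.08 without coating (edgeR, adjusted p = 0.0165 and 0.0281). The laminin call of Atp5pd held with any 1 library left out. The fibronectin calls of Atp5pd, Atp5mg and Atp5po held without fibronectin 2. They ended without each of the other libraries compared (highest adjusted p = 0.136, 0.163 and 0.175). The fibronectin call of Atp5mf and the laminin call of Atp5mg ended with any 1 of the 6 libraries left out (highest adjusted p = 0.145 and 0.102).

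**Figure D4:**
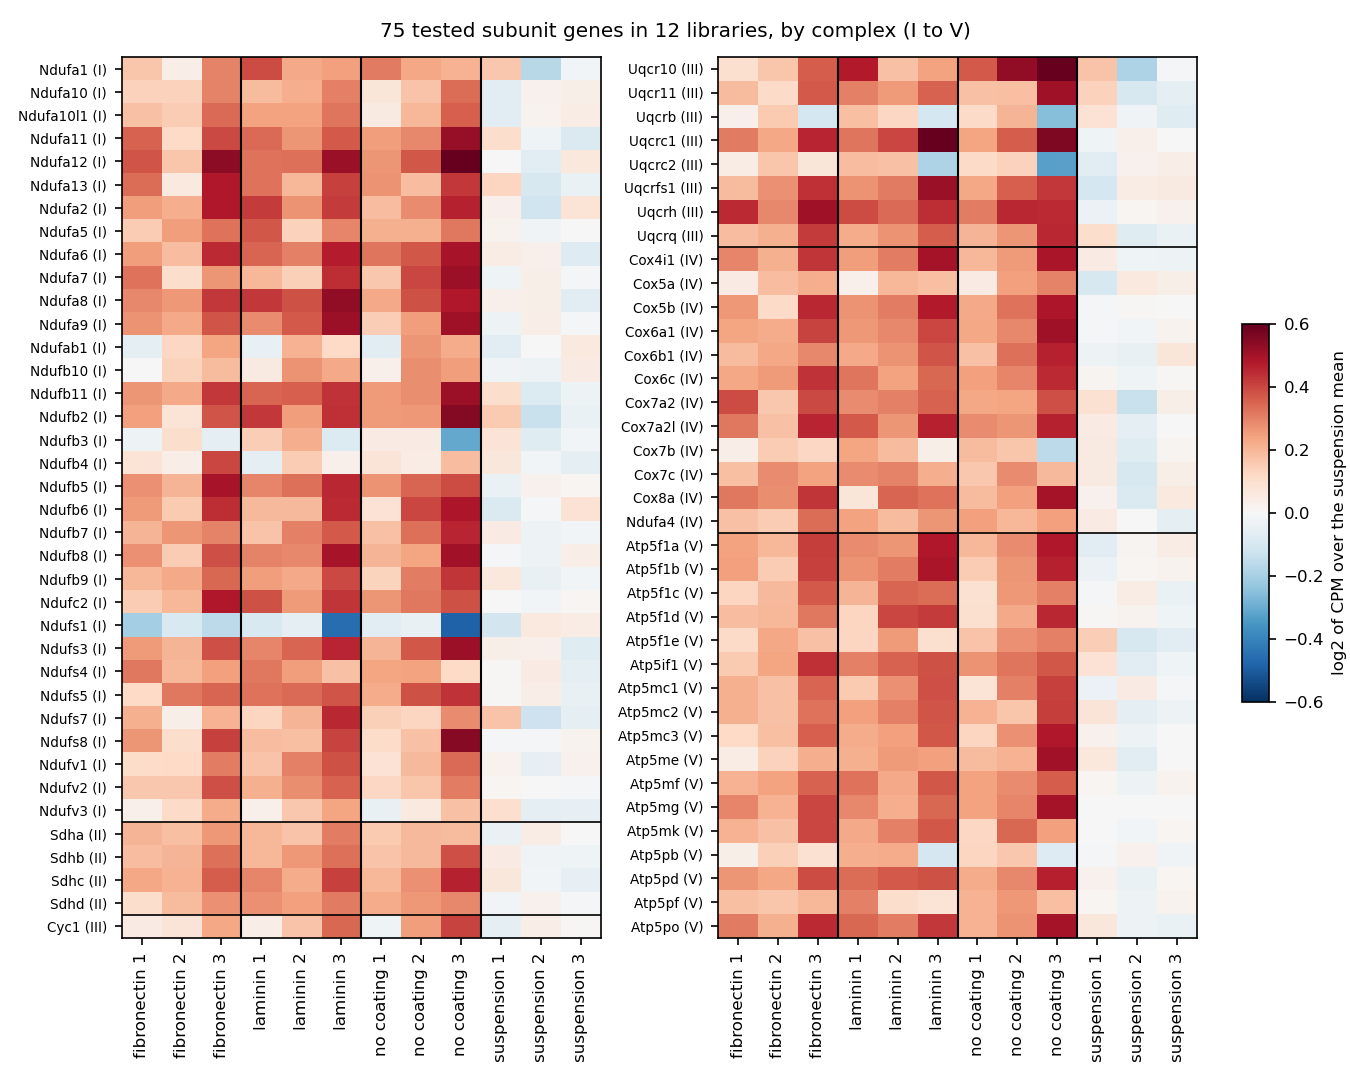
Log2 of CPM over the suspension mean for 75 of the 76 tested members (rows, complex in brackets) in 12 libraries (columns). Red fills nearly all attached columns and is deepest in replicate 3, where Ndufs1, Uqcrc2, Uqcrb, Ndufb3 and Atp5pb are blue on laminin and without coating.

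No member passed the test between surfaces. Fibronectin against no coating, laminin against no coating and laminin against fibronectin each had 0 of 76 members called (edgeR), where 0.180%, 0% and 0.150% of all genes were called, and DESeq2 and the fit with the replicate block also gave 0. At an unadjusted p under 0.05 there were 1, 0 and 0 members. The medians were -0.03, 0.02 and 0.04 on the log2 scale. The 1 gene was Uqcr10, a small complex III subunit chosen after its values were seen. It stood at 12.5, 13.1 and 15.0 CPM on fibronectin and 15.1, 16.9 and 20.5 CPM without coating, a log2 fold change of -0.37 ± 0.14 (edgeR, adjusted p = 1). The median SE of a member's log2 fold change between surfaces was 0.09. The log2 fold changes ran between -0.37 and 0.11, between -0.28 and 0.16 and between -0.14 and 0.14 in the order given.

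Batch 3 was looked at apart, because the attached libraries of this batch were known to stand away from the others. In attached cells 38 of 76 members were higher in batch 3 than in batches 1 and 2 and 5 were lower (edgeR, 4 groups plus a batch 3 shift for attached cells and another for suspension). Of all genes 38.7% were called, 1399 higher and 2477 lower. The comparison in attached cells sets 1 batch against 2. Attached libraries of 1 batch moved together (lowest correlation of deviations from the group mean 0.514 over 9 pairs). The p-values for batch 3 in attached cells therefore do not measure the spread between batches. The median shift of the members was 0.16 on the log2 scale, against 0.03 over all genes. The 3 attached batch 3 libraries lay above the other 6 attached libraries for 43 members, where 14.9% of all genes did so, and below for 2, where 22.0% did so. Higher and lower members numbered 18 and 2 in complex I, 2 and 0 in complex II, 5 and 2 in complex III, 5 and 0 in complex IV, and 8 and 1 in complex V. In suspension 0 members were called between batch 3 and the others (edgeR), with 0 at an unadjusted p under 0.05 and 0 by DESeq2, and 0% of all genes were called. That comparison sets 1 library against 2. The shift in attached cells minus the shift in suspension was called for 0 members. Of all genes 11.7% were called, 11 higher and 1166 lower, whereas 68 of the 76 members had a positive difference. At an unadjusted p under 0.05 there were 10 members by edgeR, where 22.88% of all genes passed, and DESeq2 called 0 members. A difference between the shifts is thus not shown for the members.

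The median member stood above suspension within each batch. The median difference in log2 CPM on fibronectin was 0.17, 0.19 and 0.37 in batches 1, 2 and 3. On laminin it was 0.23, 0.30 and 0.37, and without coating 0.15, 0.29 and 0.42. In batch 1, 68, 72 and 73 of 76 members were positive on fibronectin, laminin and uncoated dishes, in batch 2, 75 on each, and in batch 3, 73, 71 and 70. The direction of the median against suspension was thus the same in all 3 batches.

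**Figure D5:**
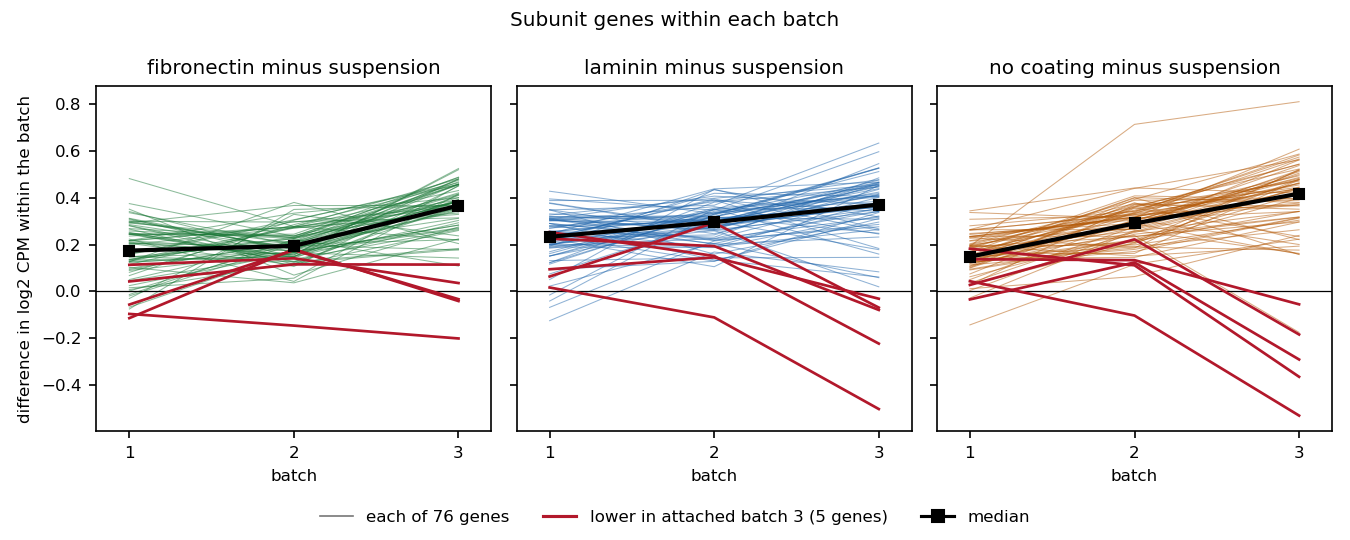
Difference in log2 CPM between an attached library and the suspension library of the same batch, for 76 members (thin lines), their median (black squares) and the 5 members that were lower in attached batch 3 (red). The median is positive in every batch and highest in batch 3 on all surfaces, whereas the red genes lie between -0.53 and 0.11 in batch 3.

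The members that rose in attached batch 3 included the catalytic genes of the ATP synthase. Atp5f1b rose by 0.22 ± 0.05 and Atp5f1a, the alpha subunit, by 0.21 ± 0.04 (edgeR, adjusted p = 0.00261 and 0.00265). Uqcrc1 rose by 0.24 ± 0.05 (edgeR, adjusted p = 0.00357). Ndufs8, a core iron-sulphur subunit of complex I, had 59.8 CPM on fibronectin, 59.6 CPM on laminin and 65.7 CPM without coating in batch 3, against 48.5 to 54.2 CPM in batches 1 and 2 over the 3 surfaces, and rose by 0.28 ± 0.06 (edgeR, adjusted p = 0.00329). Ndufa12 and Ndufb8, accessory subunits of complex I, rose by 0.25 ± 0.06 and 0.22 ± 0.05 (edgeR, adjusted p = 0.00571 and 0.00466), and both calls ended without uncoated replicate 3 (adjusted p = 0.057 and 0.0581). With any 1 attached library left out, the calls of 6 members held, among them Atp5f1a, Atp5f1b, Cox4i1, Cox5b and Uqcrc1. The call of Ndufs8 ended without uncoated replicate 3 (adjusted p = 0.0511). The count of members called in either direction was 43, and it was 26, 21, 20, 26 and 7 without fibronectin 2, fibronectin 3, laminin 3, uncoated 1 and uncoated 3.

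The 5 members that were lower in attached batch 3, named after their values were seen, were Ndufb3, Ndufs1, Uqcrb, Uqcrc2 and Atp5pb. Uqcrc2 stood at 166 CPM on fibronectin, 139 CPM on laminin and 126 CPM without coating in batch 3. In batches 1 and 2 it stood at 163 and 177 CPM on fibronectin, 179 and 178 CPM on laminin, and 171 and 173 CPM without coating. The low libraries were laminin 3 and uncoated 3, and fibronectin 3 lay within the range of the others. The shift of Uqcrc2 was -0.28 ± 0.07 and that of Ndufs1 -0.27 ± 0.08 (edgeR, adjusted p = 0.0119 and 0.0185), and both calls ended without laminin 3 or without uncoated 3 (adjusted p up to 0.125 and 0.165). Uqcrb stood at 48.0, 48.1 and 43.3 CPM in batch 3 on fibronectin, laminin and uncoated dishes. Its values in batches 1 and 2 ran between 52.9 and 59.5 CPM, without overlap, and the shift was -0.29 ± 0.06 (edgeR, adjusted p = 0.0039; 0.0518 without uncoated 3). Ndufb3, an accessory subunit of complex I, shifted by -0.24 ± 0.07 and Atp5pb by -0.18 ± 0.06 (edgeR, adjusted p = 0.0217 and 0.0387). The call of Ndufb3 ended without laminin 3 or uncoated 3 (adjusted p up to 0.166), and that of Atp5pb held in 2 of 9 fits that left out 1 attached library, those without fibronectin 1 and without fibronectin 3 (adjusted p up to 0.297).

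The other genes of the pathway are read against the share of all genes that passed, which was 6.61% higher and 3.06% lower on fibronectin, 12.1% and 6.96% on laminin, and 8.48% and 4.10% without coating. Of 42 tested assembly factors, which build the complexes but are not part of them, 3 rose and 1 fell on fibronectin, 3 rose and 3 fell on laminin, and 2 rose and 1 fell without coating, with medians of 0.05, 0.05 and 0.04. Higd2a and Coa3, both factors for complex IV, rose on fibronectin by 0.50 ± 0.12 and 0.46 ± 0.12 (edgeR, adjusted p = 0.0256 and 0.0355). Cox15, needed to make haem A, fell there by 0.26 ± 0.07 (edgeR, adjusted p = 0.0287). Tmem242 rose on every surface, by 0.368, 0.351 and 0.345 (edgeR, adjusted p = 0.0267, 0.0216 and 0.0296). Coa3 and Cox15 were also called on laminin and without coating, at 0.511 and 0.455 for Coa3 and -0.289 and -0.259 for Cox15. Higd2a also rose on laminin, by 0.407. On laminin Taco1, a translational activator of mitochondrial Cox1, fell by 0.70 ± 0.13 (edgeR, adjusted p = 0.00505). Tmem70 was also lower on laminin, at -0.42 ± 0.13 (edgeR, adjusted p = 0.0483). Of 16 tricarboxylic acid cycle genes 0 rose on fibronectin (edgeR; 5 at an unadjusted p under 0.05, 2 by DESeq2), 3 on laminin (Pdhb, Dlst and Idh3b, by 0.22 to 0.24) and 1 without coating (Dlst), and 0 fell, with medians of 0.07, 0.10 and 0.09. Of 13 genes for mobile carriers and ubiquinone synthesis 0 were called on any surface (edgeR; 2, 1 and 2 at an unadjusted p under 0.05, 0 by DESeq2). Cycs, which encodes cytochrome c, had -0.11 ± 0.22, -0.17 ± 0.22 and -0.26 ± 0.22 (edgeR, adjusted p = 0.768, 0.605 and 0.417).

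Of 16 tested regulators of mitochondrial biogenesis, 0 changed on fibronectin (edgeR; 1 higher and 2 lower at an unadjusted p under 0.05, 1 higher and 1 lower by DESeq2), 1 rose on laminin and 2 rose without coating, with medians of -0.04, -0.11 and -0.06. The genes that rose were Ppard without coating by 0.65 ± 0.18 and Polg2 by 0.40 ± 0.12 (edgeR, adjusted p = 0.0413 and 0.047), and Ppard on laminin by 0.60 ± 0.18 (adjusted p = 0.0426). Nrf1, the factor whose letters were searched above, stood at 36.6 ± 1.48 CPM on fibronectin, 37.3 ± 1.57 CPM on laminin and 37.1 ± 2.47 CPM without coating, against 36.3 ± 2.33 CPM in suspension (SD, n = 3). Its log2 fold changes were 0.01 ± 0.08, 0.04 ± 0.08 and 0.03 ± 0.08 (edgeR, adjusted p = 0.928, 0.738 and 0.789). Tfam, which packages mitochondrial DNA and starts its transcription, had 0.00, 0.03 and -0.06, each ± 0.10. Gabpa, the DNA-binding chain of GABP, had -0.60 ± 0.37, -0.61 ± 0.37 and -0.73 ± 0.37, none of which passed (edgeR, adjusted p = 0.322, 0.252 and 0.199). In attached batch 3, 4 of the 16 regulators were lower and 0 higher (edgeR), where 2477 of 10020 genes were lower and 1399 higher. The count of lower regulators was thus near the share of all genes. The 4 were Gabpa, Mterf3, Tfb2m and Yy1. Their shifts were -1.06 ± 0.10, -0.66 ± 0.12, -0.52 ± 0.08 and -0.27 ± 0.06 (edgeR, adjusted p = 1.4e-05, 0.00113, 0.000416 and 0.00554). Ppargc1a, a co-activator of mitochondrial genes in heart muscle, had 2 counts over the 12 libraries.

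Cytosolic ribosomal protein genes, which serve translation and not respiration, are given beside the members because they also rose. Of 73 tested, 28 rose on fibronectin, 64 on laminin and 53 without coating, and 0 fell, where 6.61%, 12.1% and 8.48% of all genes rose. Their medians were 0.30, 0.33 and 0.33 on the log2 scale. In attached batch 3, 35 were higher and 1 lower, with a median of 0.15, where 1399 of 10020 genes were higher and 2477 lower. The share of counts on ribosomal RNA genes was 4.24%, 1.63% and 2.47% on fibronectin, 1.38%, 0.448% and 1.25% on laminin and 3.06%, 1.85% and 2.55% without coating, against 0.809%, 2.30% and 1.14% in suspension. Its part in the result was not tested. Reads of many members can also match processed copies elsewhere in the genome: 44 of the 76 have at least 1 RefSeq pseudogene or copy of their name. On laminin the median change was 0.29 for these 44 and 0.31 for the other 32, and 26 and 21 rose.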

How the data were processed

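The 12 libraries were prepared from total RNA with a TruSeq stranded kit, per the labels. The authors deposited unnormalised counts for each gene, keyed by Entrez identifier, and all values were whole numbers. The submitters' processing notes name the build rn4. Aligner, counting tool and strand setting are not given in the sources used. Of 16924 identifiers, 16761 matched a symbol in the RefSeq table of GRCr8, used for names only.

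All counts were tested with edgeR 4.0.16 in R 4.3.3 (glmQLFit, glmQLFTest). The filterByExpr filter left 10020 genes, and libraries were scaled by TMM (factors 0.962 to 1.03). One means model of 4 groups held all 12 libraries (8 residual degrees of freedom). Benjamini-Hochberg adjustment ran over all genes with a threshold of 0.05, and members were read from that table. The SE is the absolute log2 fold change over the square root of F. Batch 3 was tested with a shift for attached cells and another for suspension (6 residual degrees of freedom). CPM values are TMM-scaled. Within-batch differences and counts of groups that did not overlap use log2 CPM with a prior count of 2. Alternatives were the replicate block, DESeq2 1.42.0, other scalings, no filter, single libraries or batch 3 left out, and fits of the compared groups alone. The code was tested on simulated data.

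By the labels a replicate number marks a batch, and libraries are paired by it. The median correlation of deviations from the group mean was 0.409 over 18 same-batch pairs (lowest 0.036) and -0.124 over 36 other pairs, across genes, which are not independent replicates.

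The members, gene lists and comparisons were chosen with earlier results of these data known. Members were named by rule: those called in a comparison with suspension, or the 8 with the smallest p where more were called, the 10 with the smallest p for batch 3, members with the most reads or the extreme median change in each complex, and listed isoforms and regulators, from which examples are given. The values of 1 member are not reported here. Promoter windows came from RefSeq (GRCr8). The upper limits given for genes without counts cover counting error only, whereas the SE and SD values include the spread between libraries. No transcript lengths were used, so levels are compared between groups and not between genes.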

Additional observations from a re-analysis of the deposited data

How the results depend on the processing

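The median log2 fold change of the members stayed positive on every surface under every setting run: 0.19 to 0.28 on fibronectin, 0.25 to 0.32 on laminin and 0.21 to 0.36 without coating. The counts of members that rose did not hold as well, against 13 on fibronectin, 47 on laminin and 29 without coating in the fit reported. With the replicate block, which pairs the libraries of a batch, they were 54, 62 and 66, where 16.6%, 22.4% and 20.1% of all genes rose. With library size as the only scaling they were 1, 19 and 3, where 3.83% of all genes rose on fibronectin and 4.95% without coating, and with no low-count filter 2, 28 and 13, where 3.94%, 6.77% and 4.63% of all genes rose. The DESeq2 Wald test gave 23, 49 and 39, where 7.91%, 12.2% and 9.34% of all genes rose. The edgeR fit with DESeq2 size factors gave 10, 44 and 23, where 6.26%, 10.8% and 7.22% rose. Without batch 3 they were 1, 31 and 13, where 4.30%, 8.55% and 5.17% of all genes rose. Without batch 3 but with the replicate block, a setting chosen after seeing the data, they were 31, 61 and 47, where 13.5%, 19.5% and 14.7% of all genes rose. With only the compared groups in the fit they were 20, 37 and 1, where 7.62%, 9.43% and 2.87% rose. Leaving out 1 library gave 1 to 10 on fibronectin, 4 to 32 on laminin and 1 to 37 without coating, where 2.82% to 5.32%, 4.76% to 9.09% and 3.48% to 8.69% of all genes rose. In none of these fits did a member fall. For batch 3 in attached cells the total of 43 ranged between 7 and 45 with 1 library left out. The difference of the batch 3 shifts had 0 members called except without fibronectin replicate 3, where 2 were lower (Uqcrc2 and Ndufs1). Between surfaces 0 members were called in every fit run.

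Uqcrb turned negative against suspension, without a call, in a few settings. On fibronectin it was -0.006 with library size only, -0.004 without suspension replicate 3 and -0.036 without fibronectin replicate 2, and its highest value with 1 library left out was 0.093. Without coating it was -0.002 without suspension replicate 3, -0.012 without uncoated replicate 1 and -0.058 without uncoated replicate 2, and its highest was 0.157. The causes of these differences were not tested beyond what each setting removes.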
